A study of Rattus norvegicus with 22 samples.

Results

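Collagens are described here by all gene symbols of the count table that consist of Col, a number, the letter a and a number, with at least 30 counts summed over the 14 RNA-seq libraries. This rule found 26 of the 17172 genes in the table, and all 26 passed the filter on low counts and were tested. A further collagen symbol, Col1a2, had 1 count in all, beside 7232 for Col1a1, and was left out. Whether this reflects the annotation or counting was not tested. The count table has no symbol Col4a2, Col6a1 or Col6a3, so the classes below lack these chains. The rule does not use any difference between groups.

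The study measured the hippocampus on the side of a lateral fluid percussion injury, a model of moderate traumatic brain injury (TBI) in which a pressure pulse strikes the dura through a craniectomy. All animals were adult male Sprague-Dawley rats, and sham rats had the craniectomy and anesthesia without the pulse, so that surgery is shared by every group. The groups were sham day 1 (n = 2), TBI day 1 (n = 4), sham day 14 (n = 4) and TBI day 14 (n = 4), with day counted from surgery. Each library came from poly(A)-selected RNA of whole dissected tissue and held 15065540 to 23743703 counts, of which collagen genes took 0.0975% to 0.313%. In such bulk tissue, fewer cells of a type and less RNA per cell cannot be told apart.

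Collagens are secreted or membrane-bound proteins built from 3 chains wound into a triple helix, which depends on hydroxylation of proline and lysine in the endoplasmic reticulum. Fibrillar collagens form the tensile fibrils of connective tissue, fibril-associated collagens decorate them, and type IV collagen forms the sheet of basement membranes. The healthy brain holds little fibrillar collagen outside its meninges and larger vessels, whereas type IV collagen surrounds every capillary. After injury, fibroblasts, pericytes and endothelial cells are known sources of new matrix.

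The 26 genes were sorted by class into 9 fibrillar, 4 fibril-associated, 3 type IV, 2 type VI, 2 multiplexin, 3 transmembrane and 1 short-chain network gene, plus 2 others (Col7a1 and Col26a1). Counts were concentrated in few of them. Col11a2 held 32.5% of all collagen counts, Col16a1 11.9% and Col4a1 10.6%. Levels below are CPM, counts scaled to a common library total with TMM factors, and since they carry no correction for length they are compared between samples and not between genes.

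Promoter sequences from RefSeq (build GRCr8, 250 bases before to 50 after the annotated start) were found for 21 of the 26 genes. Shown are 4 of them, because these genes gave the smallest adjusted p for TBI against sham at day 1 below. Capitals mark matches on either strand to any of 4 motifs. The first is the GC box, spelled GGGCGG, and the second is the CCAAT box, spelled as its name. The third is the TATA box, spelled TATAAA, and the last is the AP-1 motif, spelled TGANTCA with any base at N.
Col4a1 (chr16:84885347-84885646, + strand): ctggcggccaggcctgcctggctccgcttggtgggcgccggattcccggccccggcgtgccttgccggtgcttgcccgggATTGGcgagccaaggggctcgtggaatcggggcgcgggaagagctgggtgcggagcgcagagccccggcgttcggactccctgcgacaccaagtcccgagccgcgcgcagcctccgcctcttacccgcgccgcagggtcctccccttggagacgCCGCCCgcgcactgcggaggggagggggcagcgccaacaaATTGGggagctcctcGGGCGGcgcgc
Col13a1 (chr20:30466751-30467050, - strand): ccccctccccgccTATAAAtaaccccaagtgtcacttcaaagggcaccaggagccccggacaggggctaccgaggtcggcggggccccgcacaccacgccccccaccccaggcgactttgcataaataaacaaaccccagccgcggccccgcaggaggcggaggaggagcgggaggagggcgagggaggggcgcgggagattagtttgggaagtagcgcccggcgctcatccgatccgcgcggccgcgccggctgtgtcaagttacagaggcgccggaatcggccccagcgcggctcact
Col17a1 (chr1:256518808-256519107, - strand): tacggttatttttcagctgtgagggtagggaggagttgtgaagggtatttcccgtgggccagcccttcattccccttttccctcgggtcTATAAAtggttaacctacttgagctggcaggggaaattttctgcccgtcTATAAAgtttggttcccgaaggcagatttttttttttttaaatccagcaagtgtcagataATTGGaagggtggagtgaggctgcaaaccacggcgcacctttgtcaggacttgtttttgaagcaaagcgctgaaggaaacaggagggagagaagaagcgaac
Col11a2 (chr20:4817599-4817898, - strand): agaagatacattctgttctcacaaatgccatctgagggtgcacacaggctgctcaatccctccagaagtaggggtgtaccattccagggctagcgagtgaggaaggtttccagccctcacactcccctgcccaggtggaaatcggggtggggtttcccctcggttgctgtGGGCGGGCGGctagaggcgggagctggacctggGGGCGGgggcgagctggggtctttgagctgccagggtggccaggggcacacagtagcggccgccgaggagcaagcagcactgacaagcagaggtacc
The basement membrane gene Col4a1 has a promoter of 75.0% GC with 2 matches to the GC box and 2 to the CCAAT box. Col17a1, at 47.3% GC, has 2 TATA box matches that begin 161 and 112 bases before the start, and Col13a1 has 1 that begins 237 bases before it. In Col11a2 the capitals cover 3 GC boxes, a pair of which overlap. Over the 21 collagen promoters, the GC box was found in 12 (57.1%), against 33.1% of all 33469 promoters in the table. The CCAAT box was found in 5 (23.8%, against 37.5% of all), the TATA box in 2 (9.52%, against 14.2%) and the AP-1 motif in 0 (against 7.33%). The median GC was 62.7% in the collagen promoters and 51.7% in all promoters, and the motif shares were not adjusted for it. The matches describe these letters in this window only.

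Col4a3 and Col4a4, which encode the chains that replace the common type IV chains in a few specialised basement membranes, start head to head on chromosome 9, so that their promoter windows share 88 bases with no match to any of the motifs.
Shared by Col4a3 and Col4a4 (chr9:91323740-91323827, + strand): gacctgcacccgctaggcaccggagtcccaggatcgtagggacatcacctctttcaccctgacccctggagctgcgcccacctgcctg
Neither gene was called at either day. Their log2 fold changes at day 1 were -0.18 ± 0.49 (SE) for Col4a3 and 0.40 ± 0.40 for Col4a4, and at day 14 they were -0.24 ± 0.40 and 0.09 ± 0.32.

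At day 1 after injury, 6 of the 26 collagen genes were upregulated and 2 were downregulated relative to sham day 1 (edgeR quasi-likelihood test, Benjamini-Hochberg adjusted p under 0.05 over 12875 genes). The upregulated genes were Col4a1, Col13a1, Col17a1, Col7a1, Col5a3 and Col6a2, with log2 fold changes of 0.75 to 2.79, and the downregulated ones were Col11a2 and Col26a1. These counts are 23.1% and 7.69% of the collagen genes, beside 11.2% called up and 7.93% called down among all genes tested. The median log2 fold change was 0.74 over the collagen genes and -0.02 over all genes. In 10 of the 26 genes every injured rat lay above both sham rats, beside 16.7% of all genes tested, and in 3 every injured rat lay below, beside 14.1%.

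**Figure D1:**
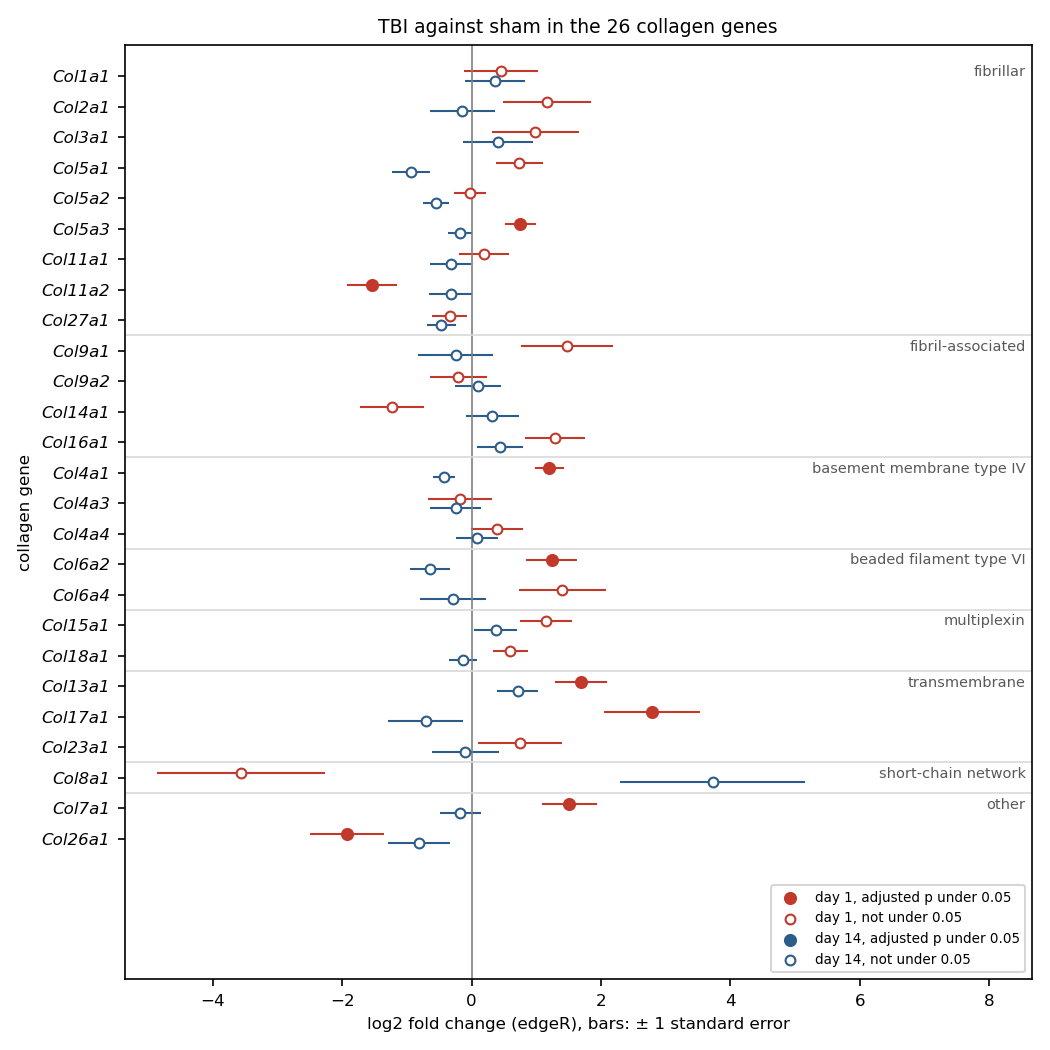
Log2 fold change of TBI against sham for each of the 26 collagen genes at day 1 (red) and day 14 (blue), with bars of 1 standard error and filled points for an adjusted p under 0.05; genes are grouped by class. Filled points occur at day 1 in 8 genes and at day 14 in 0, and Col8a1 lies far from zero on opposite sides with wide bars.

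Col4a1, the main chain of vascular basement membranes, gave the smallest adjusted p of the collagen genes at day 1. Its level was 111 and 84.7 CPM in sham day 1, and 253, 202, 247 and 201 CPM in TBI day 1. All 4 injured rats lay above both sham rats. The log2 fold change was 1.20 ± 0.22 (SE, adjusted p = 0.0018), and leaving out any 1 library gave values from 1.02 to 1.41 with the call kept in all 14 fits. At day 14 the sham rats had 314, 262, 186 and 265 CPM and the injured rats 188, 224, 149.9 and 203 CPM, which overlapped, with a log2 difference of -0.43. Injured rats at day 1 thus lay inside the range of sham day 14, and the 2 sham day 1 rats were the lowest of all 14.

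Both transmembrane collagens that were called rose by more. Col13a1, a cell-surface collagen of adhesion sites, stood at 3.56 and 1.84 CPM in sham day 1 and at 7.52, 5.60, 9.21 and 12.4 CPM in TBI day 1, a log2 fold change of 1.69 ± 0.40 (adjusted p = 0.0094). All 4 injured day 1 rats lay above every other library of the study. Col17a1, the hemidesmosome collagen of epithelia, had 4 and 2 counts in sham day 1 and 24, 29, 9 and 33 counts in TBI day 1, all above sham, for a log2 fold change of 2.79 ± 0.74 (adjusted p = 0.017) that rests on few reads. The sham day 14 libraries held 9, 4, 8 and 8 counts of Col17a1 and the TBI day 14 libraries 3, 9, 2 and 4, so the lowest injured day 1 library overlapped both. The third transmembrane gene, Col23a1, which had most counts of the class, was at 47.3, 15.8, 6.88 and 7.48 CPM in TBI day 1 against 16.5 and 6.55 CPM in sham day 1. Only TBI day 1 replicate 1 exceeded the sham range, and without it the log2 difference went from 0.74 to -0.19.

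Col6a2, a chain of the beaded filaments of type VI collagen, stood at 61.8 and 20.5 CPM in sham day 1 and at 113, 94.2, 93.2 and 86.9 CPM in TBI day 1. The injured rats were all higher and close to each other, while the sham pair differed about as much as the groups did. The log2 fold change of 1.23 ± 0.40 (adjusted p = 0.042) ranged from 0.65 without sham day 1 replicate 2 to 2.24 without sham day 1 replicate 1, and the call held in 5 of the 14 fits that leave out 1 library. Those 5 left out sham day 1 replicate 1, TBI day 1 replicate 4, sham day 14 replicate 3 or 4, or TBI day 14 replicate 3. The other type VI gene, Col6a4, had 58 counts at most and a log2 fold change of 1.40 ± 0.67 that was not called.

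Among fibrillar genes, Col5a3, a regulatory chain that sits in thin fibrils, rose from 101 and 105 CPM to 211, 135, 153 and 196 CPM. The injured rats lay above the sham pair, and the log2 fold change was 0.75 ± 0.24 (adjusted p = 0.039), a call kept in 8 of 14 fits that leave out 1 library, with values from 0.65 to 0.86. It was lost without either sham day 1 library, TBI day 1 replicate 1 or 4, sham day 14 replicate 2 or TBI day 14 replicate 1. Col7a1, the anchoring-fibril collagen known from skin, rose from 6.57 and 3.55 CPM to 24.3, 11.9, 12.1 and 9.31 CPM, a log2 fold change of 1.51 ± 0.43 (adjusted p = 0.024). As with Col4a1, sham day 14 was not low, at 26.3, 19.9, 11.95 and 23.1 CPM. TBI day 14 was at 14.7, 26.0, 14.2 and 17.1 CPM.

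The 2 downregulated genes went below both sham groups. Col11a2, a chain of the minor fibrils of cartilage and the collagen with the most counts here, was at 449 and 339 CPM in sham day 1 and at 257, 94.6, 111 and 80.1 CPM in TBI day 1, a log2 fold change of -1.54 ± 0.39 (adjusted p = 0.014). At day 14 it was far higher in both conditions, at 1418, 1177, 701 and 1248 CPM in sham and 828, 1207, 601 and 988 CPM in TBI rats. All 8 libraries of day 14 lay above all 6 of day 1. Col26a1, whose product carries an EMI domain, had 46 and 15 counts in sham day 1 and 12, 13, 8 and 3 counts in TBI day 1, with a log2 fold change of -1.92 ± 0.57 (adjusted p = 0.030). Without sham day 1 replicate 1 it was -0.74 (adjusted p = 0.45), and without TBI day 1 replicate 3 it was not called either. Col11a2 lost its call without sham day 1 replicate 1 only (-1.32, adjusted p = 0.066).

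The calls rest on a pair of sham rats. Without sham day 1 replicate 2, Col4a1 was the only 1 of the 6 upregulated genes still called, and Col13a1 was 1.28 (adjusted p = 0.14), Col17a1 2.29 (adjusted p = 0.17) and Col7a1 1.13 (adjusted p = 0.25). Calls were fewer over all genes too in that fit, at 4.37% up and 2.90% down. In a fit to the 6 day 1 libraries alone, 1 collagen gene was up, again Col4a1, and 0 were down, beside 4.38% and 0.739% of all genes.

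**Figure D2:**
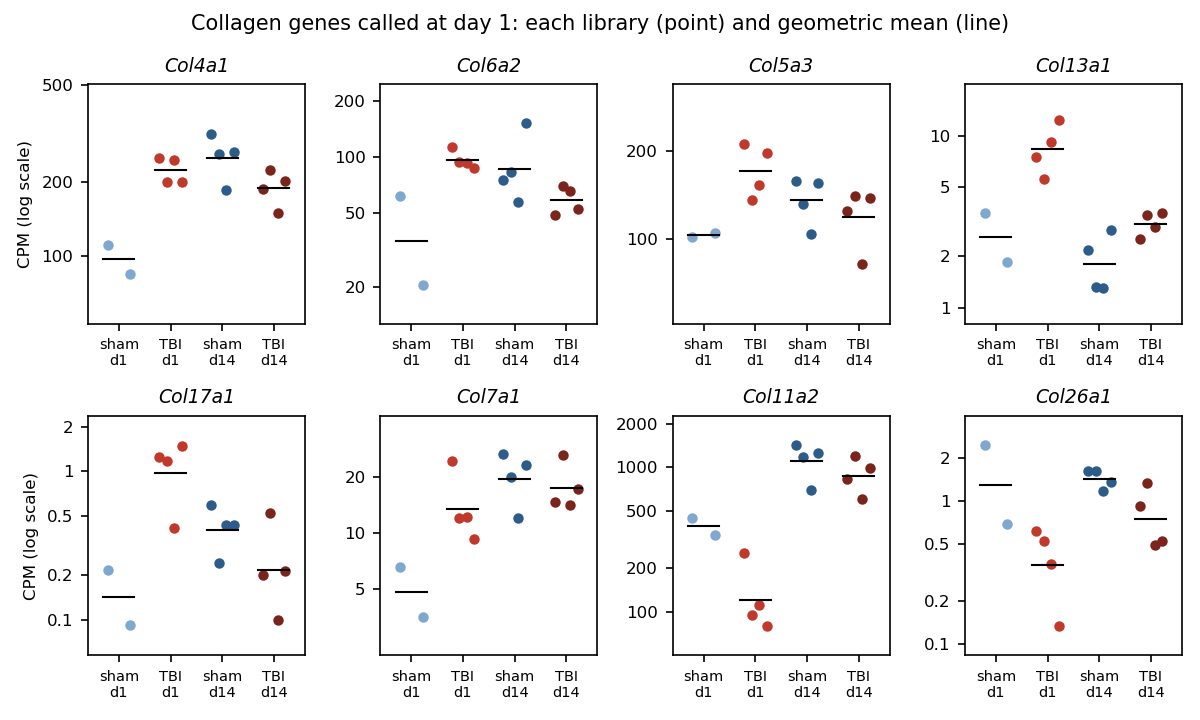
CPM on a log scale of the 8 collagen genes called at day 1, with 1 point per library and a line at the geometric mean of each group (d1 and d14 are day 1 and day 14). Col13a1 is high in TBI day 1 alone, Col4a1 and Col7a1 are low in sham day 1 alone, and Col11a2 is lowest in TBI day 1 and highest in both day 14 groups.

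The interstitial fibril collagens that dominate scars elsewhere were not called. Col3a1 had 34.9 and 3.97 CPM in sham day 1 against 16.4, 29.3, 25.7 and 81.6 CPM in TBI day 1, and Col1a1 had 40.6 and 8.30 CPM against 13.6, 23.0, 33.5 and 63.6 CPM. In both genes the groups overlapped because sham day 1 replicate 1 was high. Log2 fold changes were 0.98 ± 0.67 (adjusted p = 0.32) and 0.46 ± 0.57 (adjusted p = 0.61). Without that library they were 3.27 (adjusted p = 0.011) and 2.01 (adjusted p = 0.051), and without sham day 1 replicate 2 they were 0.13 and -0.28, so each sham rat of this pair decides the value. Col1a1 also went to -0.06 without TBI day 1 replicate 4, the rat with the highest level. Col1a1 overlaps Sgca and Col6a4 overlaps Rpl29 in the RefSeq annotation of GRCr8, and how the counting treated strand was not stated.

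No gene of the fibril-associated and multiplexin classes was called, with log2 differences from -1.23 to 1.47 in the first and above 0 in both genes of the second. Col16a1, which had most counts of its class, was at 109 and 90.3 CPM in sham day 1 and at 469.9, 129, 225 and 147 CPM in TBI day 1. All injured rats were higher, most of all replicate 1, and the log2 difference was 1.29 ± 0.46 (adjusted p = 0.064, or 0.017 by DESeq2). Sham day 14 was not low, at 133 to 269 CPM, and against it the log2 difference was 0.09 ± 0.35 and not called. Col18a1, the source of endostatin in vessel walls, was at 30.4 and 15.9 CPM against 29.5, 32.7, 34.0 and 43.6 CPM, a log2 difference of 0.59 ± 0.27 (adjusted p = 0.14) that overlapped through 1 sham library. Against sham day 14 the injured day 1 rats differed by 0.06 ± 0.22 in this gene, which was not called. Without sham day 1 replicate 1, Col18a1 was called at 1.14 (adjusted p = 0.021). Its relative Col15a1 had a log2 difference of 1.15 ± 0.40 with all injured rats above both sham rats (adjusted p = 0.059). In Col14a1 the difference was -1.23 ± 0.50, with all injured rats below (adjusted p = 0.095), on at most 55 counts per library. The type IX chain genes, whose product coats cartilage fibrils, had differences of 1.47 ± 0.71 (Col9a1) and -0.21 ± 0.44 (Col9a2), and their groups overlapped.

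Some libraries stood apart in markers of other tissue, and Col8a1 moved with them. Col1a1 and Col3a1 were high in sham day 1 replicate 1. In TBI day 14 replicate 3 they were the lowest of their group, at 24.6 and 15.1 CPM. The summed level of 18 choroid plexus markers, of which Ttr and Enpp2 had the most counts and Otx2 was at 0 in every library, was 11389 CPM in sham day 1 replicate 1, 8851 CPM in TBI day 14 replicate 3 and 2119 CPM in TBI day 14 replicate 2, and 139 to 266 CPM in the other 11 libraries. The sum of 13 fibroblast and meninges markers was also highest in sham day 1 replicate 1 (1162 CPM) and TBI day 14 replicate 3 (914 CPM), against 162 to 507 CPM elsewhere. By the mean log2 CPM of these markers, sham day 1 replicate 1 was still highest (3.93). TBI day 14 replicate 3 (2.87) did not stand out, being below TBI day 1 replicate 4 (3.83) and sham day 14 replicate 4 (3.09). At day 1, 14 of 17 tested choroid plexus markers were called down, and at day 14 only Ttr was called, and up. Collagen values without these libraries are given below.

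Col8a1, a short-chain collagen that forms hexagonal lattices in vessel walls and the eye, followed those libraries most closely. Sham day 1 replicate 1 held 531 counts and replicate 2 held 5. The TBI day 1 libraries held 7, 42, 25 and 35 counts, the sham day 14 libraries 5, 1, 5 and 5, and the TBI day 14 libraries 1, 30, 210 and 3. The 2 highest libraries of Col8a1 were the 2 highest in choroid plexus markers. Its log2 difference at day 1 was -3.57 ± 1.30 (adjusted p = 0.067), but 2.35 without sham day 1 replicate 1, 2.34 without the 3 libraries high in choroid plexus markers and 2.20 with a choroid plexus score in the model (adjusted p = 0.033). At day 14 the difference of 3.72 ± 1.44 (adjusted p = 0.23) became -0.94 without the 3 libraries. Away from those libraries, the injured day 1 rats all lay above all sham day 14 rats.

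**Figure D3:**
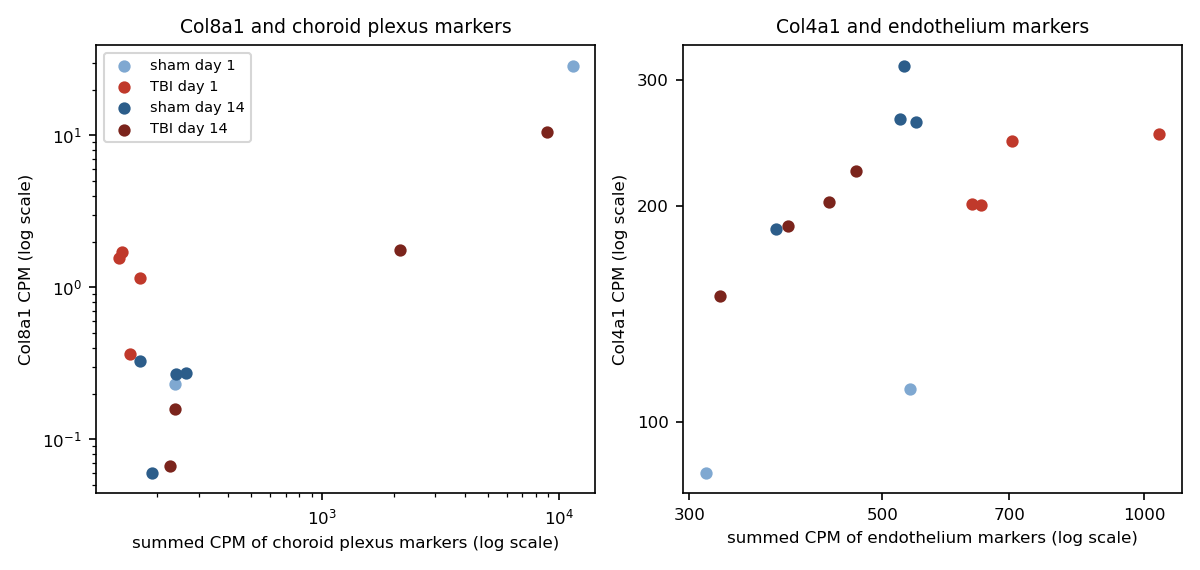
Left, CPM of Col8a1 against the summed CPM of choroid plexus markers in each of the 14 libraries; right, CPM of Col4a1 against the summed CPM of endothelium markers, all axes on a log scale and groups by colour. The 2 libraries at the upper right of the left panel are sham day 1 replicate 1 and TBI day 14 replicate 3, and in the right panel the TBI day 1 libraries have the highest endothelial sums while their Col4a1 lies within the sham day 14 range.

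Without the 3 libraries high in choroid plexus markers, 7 collagen genes were up at day 1 and 0 were down, beside 11.0% and 8.61% of all genes. Col4a1, Col13a1, Col17a1, Col7a1 and Col6a2 were among the 7, with log2 fold changes of 1.40, 2.22, 3.45, 2.01 and 2.23, and Col3a1 (3.25) and Col18a1 (1.12) were added. Col5a3 (0.72), Col11a2 (-1.32) and Col26a1 (-0.75) were no longer called. With the score as a covariate, 6 were up and 1 down, beside 10.5% and 7.52% of all genes. Compared with the main fit, Col8a1 took the place of Col5a3 among those up. Col11a2 stayed down and Col26a1 was not called.

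Summed vascular markers were also higher at day 1. Of 12 endothelium markers, Pecam1 and Vwf were called up and 0 down, beside 11.2% and 7.93% of all genes. The list summed to 313 and 538 CPM in sham day 1 and 633 to 1042 CPM in TBI day 1. Of 12 mural cell markers, which mark pericytes and smooth muscle, 3 were called up, with log2 fold changes of 3.45 for Tagln and 3.27 for Anpep, and the sums were 212 and 405 CPM in sham and 556 to 802 CPM in TBI rats. In sham day 14 the sums were 378 to 547 CPM for endothelium and 350 to 502 CPM for mural cells. Against sham day 14, TBI day 1 gave 4 endothelium markers up and 0 down, with a median log2 difference of 0.26. For mural markers it gave 2 up and 2 down, with a median of -0.24, beside 25.0% up and 21.0% down among all genes. At day 14, 0 markers of either list were called, beside 4.07% up and 0.365% down among all genes. The part of these cells in the rise of Col4a1 or Col13a1 was not tested.

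Other lists described the tissue. Hippocampal neuron markers were present, with Snap25 and Slc17a7 the most counted and only Fibcd1 at 0 in some libraries. At day 1, 5 of 8 tested neuron markers, 2 of 10 oligodendrocyte lineage markers and 2 of 8 microglia markers were called down. Called up were 2 microglia markers, 1 of 7 astrocyte markers (Gfap) and 1 of 12 fibroblast markers (Mgp, 1.74). Among all genes, 7.93% were called down and 11.2% up. At day 14, 6 microglia markers and Gfap were up and 0 of the neuron, oligodendrocyte and fibroblast lists were called. Among all genes, 4.07% were up and 0.365% down. TBI day 1 replicate 1 had the lowest neuron sum of all libraries (2100 CPM, against 4073 to 8079 CPM elsewhere), and it was the highest of its group in 18 of the 26 collagen genes. These include Col4a1, Col5a3, Col6a2 and Col7a1 among the 6 upregulated genes and both downregulated ones. Without it, 4 collagen genes were up (Col4a1, Col13a1, Col17a1 and Col7a1) and 3 down (Col11a2, Col26a1 and Col14a1), beside 11.0% and 7.63% of all genes. The part of this library's neuron level in the collagen values was not tested.

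At day 14 after injury, 0 collagen genes were up and 0 down by edgeR, where 4.07% of all genes were up and 0.365% were down. At an unadjusted p under 0.05, Col13a1 and Col8a1 were higher and Col5a1, Col5a2 and Col4a1 lower, and limma-voom called 0 genes and DESeq2 1, Col5a1. The groups overlapped in all 26 genes, whereas among all genes every injured rat lay above every sham rat in 9.13% and below in 5.86%. Col5a1, a chain that starts fibril assembly, came nearest a call, at 149, 142, 72.4 and 156 CPM in sham and 53.5, 93.4, 52.4 and 70.6 CPM in TBI rats. In this gene 3 of the 4 sham rats lay above every injured rat, with a log2 difference of -0.94 ± 0.29 (adjusted p = 0.10). Apart from Col8a1, log2 differences lay between -0.94 and 0.71.

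The effect of injury differed between the days in 1 gene, Col4a1, and in the direction of a larger value at day 1 (2.24% of all genes were called in this direction and 1.44% in the other). The difference of 1.63 ± 0.27 on the log2 scale (adjusted p = 0.0063) kept its call in all 14 fits that leave out 1 library, with values from 1.45 to 1.84. The next smallest adjusted p was in the other direction, for Col8a1 (-7.29 ± 1.93, adjusted p = 0.051), which was 3.27 without the 3 libraries high in choroid plexus markers. Col17a1 (3.50, adjusted p = 0.053), Col6a2 (1.87, adjusted p = 0.053) and Col5a1 (1.68, adjusted p = 0.064) were not called either. Since both effects use their own sham group, these values depend on the sham day 1 pair as well. Most of the Col4a1 difference lay between the sham groups. Its log2 difference was -1.39 ± 0.22 for sham day 1 against sham day 14. For TBI day 14 against TBI day 1 it was -0.24 ± 0.17 and not called.

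The 2 sham groups were themselves apart. Relative to sham day 14, sham day 1 had 1 collagen gene up (Col8a1, through replicate 1) and 4 down, beside 11.3% up and 7.88% down among all genes. The 4 were Col4a1 (-1.39 ± 0.22), Col5a2 (-1.46 ± 0.27), Col7a1 (-2.01 ± 0.44) and Col11a2 (-1.53 ± 0.44), and in 11 collagen genes both sham day 1 rats lay below all 4 sham day 14 rats and in 0 above, beside 20.1% and 21.3% of all genes. Without sham day 1 replicate 2, Col7a1 was not called, and Col11a2 was not called without either sham day 1 library or without sham day 14 replicate 1, 2 or 4 (-1.75 to -1.34 over all such fits). Time since surgery and anything else that differed between the days cannot be told apart. Col5a2, which partners Col5a1 in fibrils, was not called between injured and sham rats at day 1, at 79.9 and 72.4 CPM in sham and 64.9, 58.3, 96.7 and 80.4 CPM in TBI rats, a log2 difference of -0.02 ± 0.25. At day 14 it was at 249, 208, 142 and 243 CPM in sham and 147, 182, 107 and 136 CPM in TBI rats, all above every day 1 library.

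The study took sham day 14 as the baseline for courses over time, and against it the injured day 1 rats gave 5 collagen genes up and 5 down, beside 25.0% up and 21.0% down among all genes. Both comparisons share the injured day 1 rats, so their values are set side by side only. Col13a1 was 1.69 against sham day 1 and 2.18 against sham day 14, and Col17a1 was 2.79 and 1.34. In the other direction Col11a2 was -1.54 and -3.07 and Col26a1 was -1.92 and -1.80. These 4 genes were called with either baseline. Col4a1 went from 1.20 to -0.19, Col7a1 from 1.51 to -0.50, Col6a2 from 1.23 to 0.07 and Col5a3 from 0.75 to 0.34, and none of these was called against sham day 14. Col3a1 (1.53), Col9a1 (1.59) and Col15a1 (1.26) were up and Col5a2 (-1.48), Col9a2 (-1.03) and Col27a1 (-0.83) down against sham day 14 alone.

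**Figure D4:**
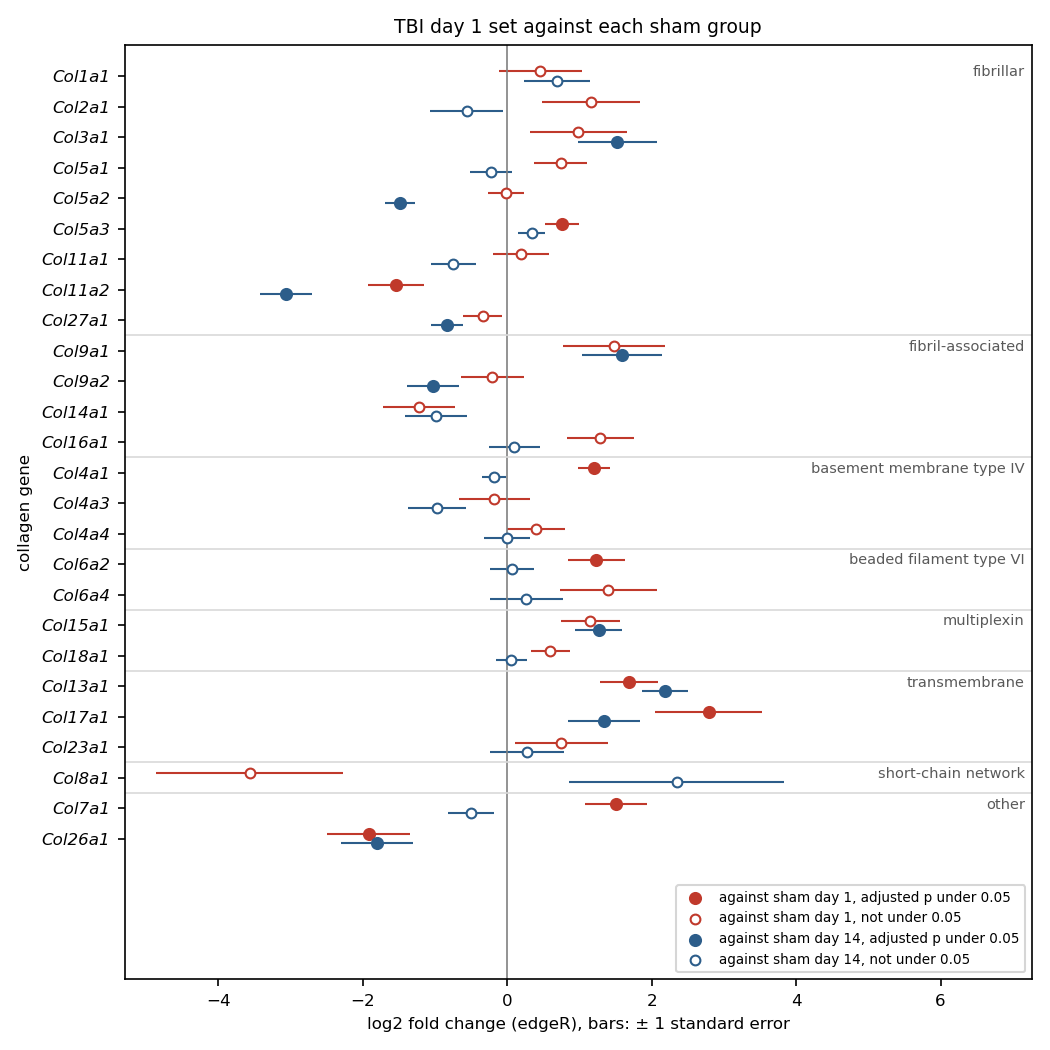
Log2 fold change of TBI day 1 against sham day 1 (red) and against sham day 14 (blue) for the 26 collagen genes, with bars of 1 standard error and filled points for an adjusted p under 0.05. Col13a1, Col17a1, Col11a2 and Col26a1 are filled in both colours on the same side, and Col4a1, Col7a1, Col6a2 and Col5a3 are filled in red only.

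Within injured rats, which leaves the sham pair out, 4 collagen genes were higher at day 14 than at day 1 and 5 were lower, beside 17.6% up and 21.9% down among all genes. Those higher at day 14 were Col11a2 (2.74 ± 0.35), Col14a1 (1.30 ± 0.42), Col9a2 (1.12 ± 0.37) and Col5a2 (0.93 ± 0.20). Those lower were Col17a1 (-2.05 ± 0.53), Col9a1 (-1.83 ± 0.56), Col13a1 (-1.47 ± 0.31), Col15a1 (-0.90 ± 0.32) and Col5a3 (-0.52 ± 0.19). In Col13a1 the 4 day 14 rats, at 2.52, 3.46, 2.93 and 3.54 CPM, all lay below the 4 day 1 rats. In Col9a1, day 1 replicate 1 stood at 16.3 CPM against 3.94, 1.28 and 5.33 CPM in the others, and without it the value was -0.91 and no longer called. Calls were also lost for Col14a1 and Col9a2 without any 1 of TBI day 1 replicates 2 to 4, for Col14a1 without TBI day 14 replicate 4 (0.85), for Col9a2 without TBI day 14 replicate 2 and for Col9a1 without TBI day 14 replicate 3. Col15a1 kept its call in 8 and Col5a3 in 9 of 14 such fits, and with TBI day 1 replicate 4 left out neither was called. The log2 difference of Col4a1 between the injured groups was -0.24 and not called.

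Of 34 tested genes in 3 lists of collagen folding, modification and cross-linking, 7 were up and 1 down at day 1 (20.6% and 2.94%, beside the 11.2% and 7.93% of all genes). Of 32 receptor and matrix partner genes in 3 further lists, 5 were up and 1 down (15.6% and 3.12%). At day 14, 0 of these 66 genes were up and 1 was down, beside 4.07% and 0.365% of all genes. The day 1 counts of 12 up and 2 down became 24 and 3 without sham day 1 replicate 1 (12.8% and 9.99% of all genes), 5 and 1 without sham day 1 replicate 2 (4.37% and 2.90%), and 6 and 0 in the 6 day 1 libraries alone (4.38% and 0.739%). Without the 3 libraries high in choroid plexus markers they were 21 and 2 (11.0% and 8.61%). The day 14 counts became 5 up and 2 down in the 8 day 14 libraries alone (7.38% and 1.68% of all genes), 3 and 1 without the 3 libraries (4.18% and 0.140%), 2 and 1 without either sham day 1 library (4.99% and 0.505%), 1 and 1 with DESeq2 (4.46% and 0.720%) and 1 and 0 without TBI day 14 replicate 3 (4.11% and 0.256%). Among hydroxylases and glycosyltransferases, 2 of 11 were up, P4hb (0.89 ± 0.17), the beta subunit of prolyl 4-hydroxylase, and Plod3 (0.74 ± 0.20), a lysyl hydroxylase. Among 10 chaperones and secretion factors, Serpinh1 (HSP47, the collagen-specific chaperone; 1.26 ± 0.32) and Fkbp10 (1.54 ± 0.25) were up and Sec23a (-0.78 ± 0.25), a coat protein of secretory vesicles, was down. Fkbp10 lay between 36.7 and 49.9 CPM in the 4 injured rats, against 9.18 and 19.6 CPM in the sham pair. At day 14 it was 12.8 to 17.1 CPM in sham and 19.97 to 25.1 CPM in TBI rats, which did not overlap though the gene was not called.

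Of 13 processing and cross-linking genes, 3 were up: Lox, the lysyl oxidase that cross-links fibrils (3.37 ± 0.82), Tgm2, a transglutaminase (1.95 ± 0.28), and Bmp1, which cuts procollagen (0.80 ± 0.25). Lox ranged from 1.66 to 22.1 CPM in injured rats and was 0.784 and 1.19 CPM in the sham pair. Of 9 receptor genes Itgb1, the common subunit of collagen-binding integrins, was up (0.89 ± 0.21) and Itga11, which pairs with it, was down (-1.02 ± 0.32). Of 10 basement membrane partners only Lamc1, a laminin chain, was up (0.82 ± 0.15). It lay between 132 and 156 CPM in injured rats, against 77.3 and 86.5 CPM in the sham pair and 81.1 to 94.1 CPM in sham day 14, so that unlike Col4a1 it stood above both sham groups.

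Of 13 interstitial matrix partners, Fn1, which encodes fibronectin, gave the clearest rise, from 56.5 and 104 CPM in sham day 1 to between 381 and 634 CPM in TBI day 1 (2.59 ± 0.31, adjusted p = 5.7e-05). At day 14 it was 70.4 to 104 CPM in sham and 40.8 to 73.5 CPM in TBI rats. Tnc (1.30 ± 0.33) and Eln (1.04 ± 0.29) were up as well, and at day 14 only Ctgf, a matricellular growth factor, was called, and down (-0.99 ± 0.26). The difference between the days was called in Fn1 (3.20 ± 0.37), Tgm2 (2.01 ± 0.34), Ctgf (1.58 ± 0.41), Eln (1.39 ± 0.37) and Lamc1 (0.90 ± 0.19). In fits that leave out 1 library, the day 1 calls of Bmp1, Itga11 and Sec23a were kept in 6, 6 and 5 of 14, the day 14 call of Ctgf in 7, and the calls of the difference in 4 for Ctgf and 5 for Eln. The lists' median log2 fold changes at day 1 were 0.29 for hydroxylases, 0.19 for chaperones, 0.52 for processing, -0.02 for receptors, 0.34 for basement membrane and 0.55 for interstitial partners, against -0.02 over all genes.

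**Figure D5:**
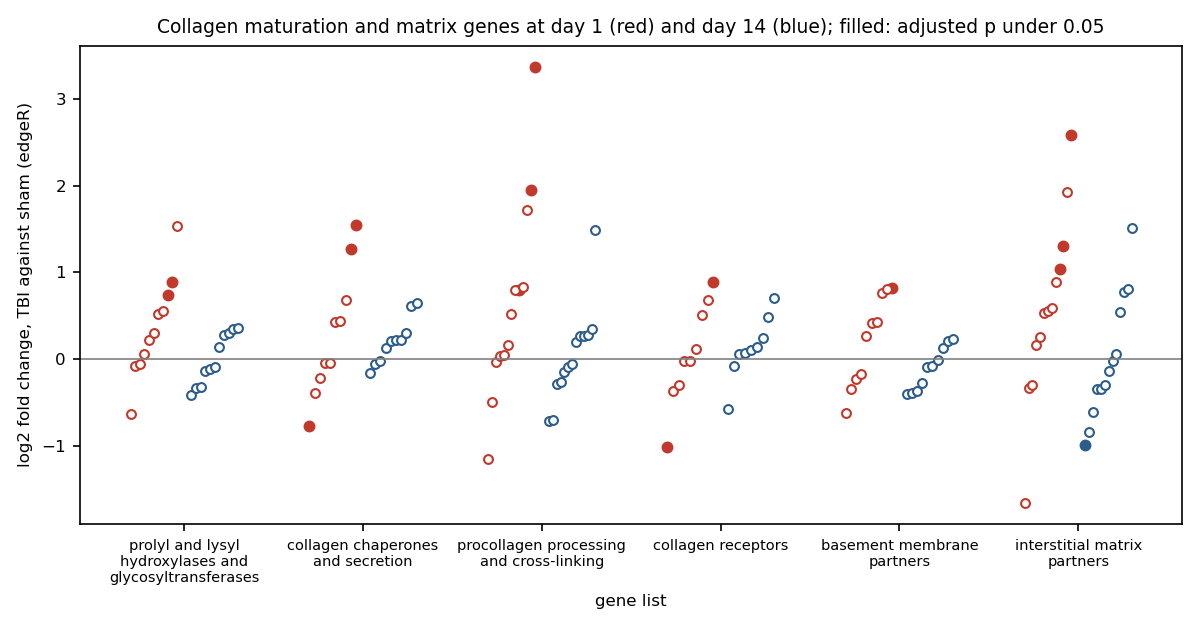
Log2 fold change of TBI against sham for each tested gene of 6 lists of collagen maturation and matrix genes, at day 1 (red) and day 14 (blue), ordered by value within a list; filled points have an adjusted p under 0.05. Lox and Fn1 are the highest filled points, and at day 14 only Ctgf is filled.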

How the data were processed

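RNA-seq counts were those the authors deposited: per the labels and methods, single-end reads of stranded mRNA libraries were aligned to rn5 with STAR 2.4.2a and counted on UCSC genes with featureCounts 1.5.0, without normalization. The strand setting was not given in the sources used here. The 14 samples were grouped by their labels, and differences between replicates exceeded counting noise in all groups. H3K4me3 peaks were not used here, since the gene tables at hand use GRCr8. Counts were tested in R 4.3.3 with edgeR 4.0.16 (TMM, filterByExpr, quasi-likelihood, 1 mean per group, two-sided), adjusted by the Benjamini-Hochberg method over 12875 genes with a threshold of 0.05. CPM has no prior count. Figures used matplotlib 3.10.9 under Python 3.11.15.

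Alternatives were limma-voom (limma 3.58.1), DESeq2 1.42.0, median-of-ratios factors, a looser filter (none) and a stricter one (10 or more counts per library), a replicate block, fits to the compared groups alone, a threshold of 0.01, sham day 14 as baseline, each library left out in turn, and choroid plexus markers handled by leaving out 3 libraries or by a score as covariate. Leaving out a sham day 1 library leaves 1, which is assumed to vary like the other groups. The tests were checked on simulated counts with large changes in TBI day 1 only. That setting had no outlying library and no difference between the sham groups, and smaller changes were not simulated. The members, gene lists and alternatives were chosen with earlier results of these data known. Some collagen genes were given in each sample of day 1. These were the genes called in a TBI-sham contrast at either day or in their difference, and the most counted gene of each class. Only for some of them were the samples of day 14 given as well. Of each pathway list, up to 3 called genes per day were named, and of each cell type list the most counted markers. The P-values measure the spread between rats.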

Additional observations from a re-analysis of the deposited data

Results flagged for a closer look

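In groups of 4 libraries, a library was noted where its gap to the nearest other divided by the range of log2 CPM exceeded Dixon's 95% critical value. Of 78 combinations of collagen gene and group, 10 were noted, and chance gives about 1 in 20. Sham day 14 replicate 3 was the lowest of its group in Col16a1 (gap over range 0.911; 133 CPM against 253 to 269 CPM), Col18a1 (0.853), Col27a1 (0.946) and Col5a1 (0.881; 72.4 CPM against 142 to 156 CPM). TBI day 14 replicate 3, which was high in choroid plexus markers, was the lowest in Col15a1 (0.935), Col3a1 (0.907) and Col4a3 (0.844). Single notes were Col14a1 in TBI day 14 replicate 4 (highest, 0.882), Col4a4 in TBI day 1 replicate 1 (highest, 0.846) and Col8a1 in sham day 14 replicate 2 (lowest, 0.853, at 1 count). The effect of TBI on Col4a1 differed between day 1 and day 14 by 1.63 on the log2 scale in edgeR's test of the difference. Most of this lay between the sham groups (-1.39 for sham day 1 against sham day 14), and the injured groups differed by -0.24.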

How the results depend on the processing

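Counts of called collagen genes are given as up and down. The share of all genes called moved between fits as well, and it is given for most of them. At day 1 the 6 and 2 (11.2% and 7.93% of all genes) became 1 and 0 with only the groups compared (4.38% and 0.739%). They were 2 and 0 at an adjusted p under 0.01, and 5 and 5 with sham day 14 as baseline (25.0% and 21.0%). The number down there was 1 with limma-voom, with 10 or more counts per library required, with the replicate block or with the choroid plexus score, and 0 without the 3 libraries high in choroid plexus markers. Among all genes the share down at day 1 was 7.64% with limma-voom and 7.50% with 10 or more counts. It was 9.15% with the replicate block and 7.52% with the score. At day 14 1 gene was down with DESeq2 (0.720% of all genes) and with only the groups compared (1.68%). For the difference between the days, 2 were up with limma-voom, without the 3 libraries and with the score, 3 with the replicate block and 6 with DESeq2, and 1 was down with DESeq2 and with no filter. Of all genes, the share up in that difference was 1.38% with limma-voom, 0.8% with the score, 2.13% with the block and 3.97% with DESeq2. The share down was 2.99% with DESeq2 and 1.23% with no filter. Between the injured groups, 3 were down with limma-voom (20.9% of all genes), and 2 up and 2 down under 0.01. Between the sham groups, 0 were up with limma-voom, at least 10 counts, only the groups compared, without the 3 libraries, with the score and under 0.01, and 8, 8 and 9 were down with DESeq2, the replicate block and only the groups compared. Leaving out 1 library gave 1 to 7 up and 0 to 3 down at day 1, 0 up and 0 to 1 down at day 14, 1 to 3 up and 0 to 1 down for the difference, 2 to 8 up and 2 to 7 down between the injured groups, and 0 to 1 up and 2 to 10 down between the sham groups. The sign changed at day 1 for Col4a1 (-0.19), Col7a1 (-0.50), Col5a1 (-0.23) and Col8a1 (2.34) with sham day 14 as baseline, for Col23a1 (-0.19) without TBI day 1 replicate 1, and for Col1a1 without sham day 1 replicate 2 (-0.28) or TBI day 1 replicate 4 (-0.06). Col8a1 changed sign at day 1 without sham day 1 replicate 1 (2.35), without the 3 libraries (2.34) and with the score (2.20), at day 14 in the latter 2 (-0.94 and -0.77), for the difference likewise (3.27 and 2.96), and between the sham groups without sham day 1 replicate 1 (-0.012) or the 3 libraries (-0.0058). Over all fits that leave out 1 library, Col8a1 ranged from -4.56 to 2.35 at day 1 and from -0.012 to 6.90 between the sham groups, and at day 1 Col23a1 ranged from -0.19 to 1.56 and Col1a1 from -0.28 to 2.01. Of 1602 values of 68 genes and contrasts under the alternatives, 1359 kept direction and side of the threshold, 188 lost a call, 39 gained one and 16 changed sign. The cause of these changes was not tested. Replicate numbers are shared by the groups. Deviations of same-numbered libraries from their group means correlated from -0.35 to 0.24, with 5 of 18 pairs above 0.1. Differently numbered libraries were not compared, so these values cannot decide whether the numbers pair the rats or mark a shared batch. Genes under about 60 counts per library (Col17a1, Col26a1, Col14a1, Col6a4 and Col4a4) are limited by depth, and the pair of sham day 1 rats limits every day 1 contrast.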
